A study of Mus musculus with 4 samples.

Results

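The 40 genes described here encode proteins of the centriole, its appendages and the material around it. They were taken by name, with no threshold on expression. All 40 were found among the 22524 gene identifiers of the libraries by their symbol in GENCODE M21, and all 40 passed the filter on low counts. RNA was sequenced from 4 libraries of mouse skin cells, 2 in each of 2 groups, and the question put to them is how expression differs between NrasQ61K cells with and without mutant Ezh2. All mice carried oncogenic NrasQ61K under the tyrosinase (Tyr) promoter, a tamoxifen-inducible Cre recombinase (CreERT2) under the same promoter, and a tdTomato reporter at the R26R locus that Cre switches on. The group named Ezh2Y646N also carried, in the ColA1 locus, a Cre-dependent allele of Ezh2Y646N, a mutant of the catalytic subunit of Polycomb repressive complex 2. Tamoxifen was given in vivo, and tdTomato-positive cells of the pre-tumorigenic dermal hyperplasia were isolated by fluorescence-activated sorting. The age of the mice is not given in the sources used here. The labels give the replicates numbers and do not say that they are separate animals, so a p-value here covers the spread among libraries only, and that spread may be technical.

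Total counts per library were between 14808801 and 20600297. Levels are in CPM, which are counts divided by library size after TMM scaling. Ezh2 itself was at 135 and 91.6 CPM in replicates 1 and 2 of the Ezh2Y646N group and at 171 and 75.1 CPM in NrasQ61K. These counts do not tell mutant from endogenous RNA, and only the Ezh2Y646N group carried the mutant allele. The log2 fold change of Ezh2 was -0.11 (SE 0.39, adjusted p = 0.944 in edgeR). In every pair of levels given here the value of replicate 1 comes first. All 12 melanocyte markers were detected in every library, with summed levels of 3976 and 4028 CPM in Ezh2Y646N and 2715 and 3512 CPM in NrasQ61K. The 11 keratinocyte markers summed to far more, 65800 and 60110 CPM against 18120 and 40670 CPM, so keratinocyte RNA was present in every library after the sort. Fewer cells of a type and less RNA per cell cannot be told apart in such samples.

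A centriole is a short barrel of microtubule triplets that is copied once per cell cycle. A kinase, Plk4, starts the copy, a cartwheel of Sass6 sets its symmetry, and other proteins lengthen and cap it. In a resting cell the older centriole docks at the plasma membrane through its distal appendages, loses its cap and becomes the basal body of the primary cilium, while pericentriolar material and small granules called satellites supply it with parts. The members were read in 5 subgroups by these roles, which are assembly (14 genes), distal end and cap (7), appendages (8), pericentriolar material and linker (5), and satellites and basal body (6).

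Promoter sequences are shown for the 3 members that differed most between the libraries of one group (Plk4, Poc1a and Sclt1) and for the members with a match to the X-box of RFX factors, which regulate ciliary genes (Cep41 and Ssx2ip). They were chosen after these values and matches were seen. Each run is the 250 bases before the RefSeq start on GRCm38.p6, 5′ to 3′ on the gene's strand, with motif matches in capitals. The regions are chr3:40799701-40799950, plus strand for Plk4, chr9:106280811-106281060, plus strand for Poc1a, chr3:41742515-41742764, minus strand for Sclt1, chr6:30693750-30693999, minus strand for Cep41, and chr3:146404392-146404641, plus strand for Ssx2ip.
Plk4: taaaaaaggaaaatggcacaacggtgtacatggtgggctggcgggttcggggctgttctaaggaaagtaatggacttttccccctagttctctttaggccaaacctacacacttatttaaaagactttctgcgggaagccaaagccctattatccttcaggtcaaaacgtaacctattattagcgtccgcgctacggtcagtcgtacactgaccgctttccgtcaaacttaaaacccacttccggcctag
Poc1a: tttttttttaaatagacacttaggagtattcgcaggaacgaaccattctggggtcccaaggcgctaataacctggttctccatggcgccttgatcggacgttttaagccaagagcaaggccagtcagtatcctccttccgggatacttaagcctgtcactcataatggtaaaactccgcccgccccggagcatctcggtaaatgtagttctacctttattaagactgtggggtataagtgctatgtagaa
Sclt1: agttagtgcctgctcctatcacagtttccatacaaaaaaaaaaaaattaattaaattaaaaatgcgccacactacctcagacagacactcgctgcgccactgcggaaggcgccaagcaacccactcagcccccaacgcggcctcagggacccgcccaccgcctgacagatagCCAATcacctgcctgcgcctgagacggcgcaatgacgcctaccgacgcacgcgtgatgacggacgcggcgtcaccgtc
Cep41: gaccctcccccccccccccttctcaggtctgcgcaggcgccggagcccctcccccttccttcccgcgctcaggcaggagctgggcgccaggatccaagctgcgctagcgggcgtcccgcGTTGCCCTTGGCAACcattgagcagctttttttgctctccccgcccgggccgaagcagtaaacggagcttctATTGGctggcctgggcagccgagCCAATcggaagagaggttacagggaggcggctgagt
Ssx2ip: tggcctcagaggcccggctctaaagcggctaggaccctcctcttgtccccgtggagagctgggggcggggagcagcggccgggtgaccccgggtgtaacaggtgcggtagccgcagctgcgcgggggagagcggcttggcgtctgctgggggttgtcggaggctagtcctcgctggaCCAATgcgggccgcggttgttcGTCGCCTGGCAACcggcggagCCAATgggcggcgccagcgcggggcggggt
The capitals mark CCAAT boxes on either strand, and in Cep41 and Ssx2ip also the X-box, which begins 131 bases before the start in Cep41 and 51 bases before it in Ssx2ip. Cep41's X-box letters match on both strands and are 1 site. Plk4 and Poc1a hold none of the 4 motifs described next in this window. The Plk4 window ends at 40799950, short of the GENCODE start of the gene at 40800019, and the bases between were not searched. The promoter entry of Plk4 ends at 40800000, also before the GENCODE start. A search for its last bases in GENCODE transcripts of Plk4 therefore could not check the RefSeq start.

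The promoter table held 42 promoters of 35 members, and the members without a match were Cep192, Cep120, Rttn, Cntrob and Pcm1. A CCAAT box (CCAAT, both strands) was found in 22 of these 42, or 52.4%, and in 33.8% of all 32851 promoters of the same length. The RFX X-box was in 2 of 42 (4.76%) and in 1.29% of all, both of them in the satellite and basal body subgroup. For cell cycle motifs, the E2F letters TTTGGCG or TTTCGCG were in 2 of 42 (4.76%, against 1.93% of all), in the promoters of Ccp110 and Cep63. The cell cycle genes homology region (TTTGAA) was in 7 of 42 (16.7%, against 16.0%), and 5 of these 7 belonged to 4 appendage genes, Cep164, Cep89, Nin and Odf2, the last with 2 overlapping promoters that share 1 site. Overlapping promoters of Odf2 and of Cep57 also share 1 CCAAT box each, and every such site is counted in both promoters. The median GC content of the members' windows was 59.8%, against 52.4% over all promoters. These matches are descriptions of letters, and CCAAT and X-box matches do not overlap in the printed windows.

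No member passed the test between the groups. Of the 40 tested, 0 passed an adjusted p of 0.05 in edgeR's quasi-likelihood test, where 1.77% of all 14265 genes tested did (1.1% higher and 0.673% lower in Ezh2Y646N), and 0 had an unadjusted p under 0.05, where 14.3% of all genes did. DESeq2 and limma voom also called 0 of the 40, where they called 6.5% and 1.48% of all genes. With no filter on low counts and with a block for the replicate number edgeR called 0 of the 40, against 6.95% and 9.37% of all genes. Leaving out Ezh2Y646N replicate 1, Ezh2Y646N replicate 2 or NrasQ61K replicate 1 also gave 0 members, against 0.63%, 1.47% and 2.95% of all genes, and leaving out NrasQ61K replicate 2 gave 1 member, Cep135, against 7.66%. The log2 fold change of Ezh2Y646N over NrasQ61K was below 0 in 32 members and above 0 in 8, with a median of -0.23, against a median of -0.042, with 7703 of 14265 below 0, over all genes tested. Folds ran from 0.5995 (Cep135) to 1.40 with a median standard error (SE) of 0.29 on the log2 scale. The groups did not overlap in 9 members, or 22.5%, against 44.2% of all genes tested. Of these, 4 were higher in Ezh2Y646N (Cep63, Ofd1, Nin and Ssx2ip, against 21.1% of all genes) and 5 lower (Cep135, Cep120, Poc5, Ttbk2 and Ninl, against 23.1%). The direction of the members' median depended on which NrasQ61K library was kept. Without NrasQ61K replicate 1 the median was 0.12, with 27 members above 0 and 13 below. Without NrasQ61K replicate 2 it was -0.44, with 8 members above 0 and 32 below.

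**Figure D1:**
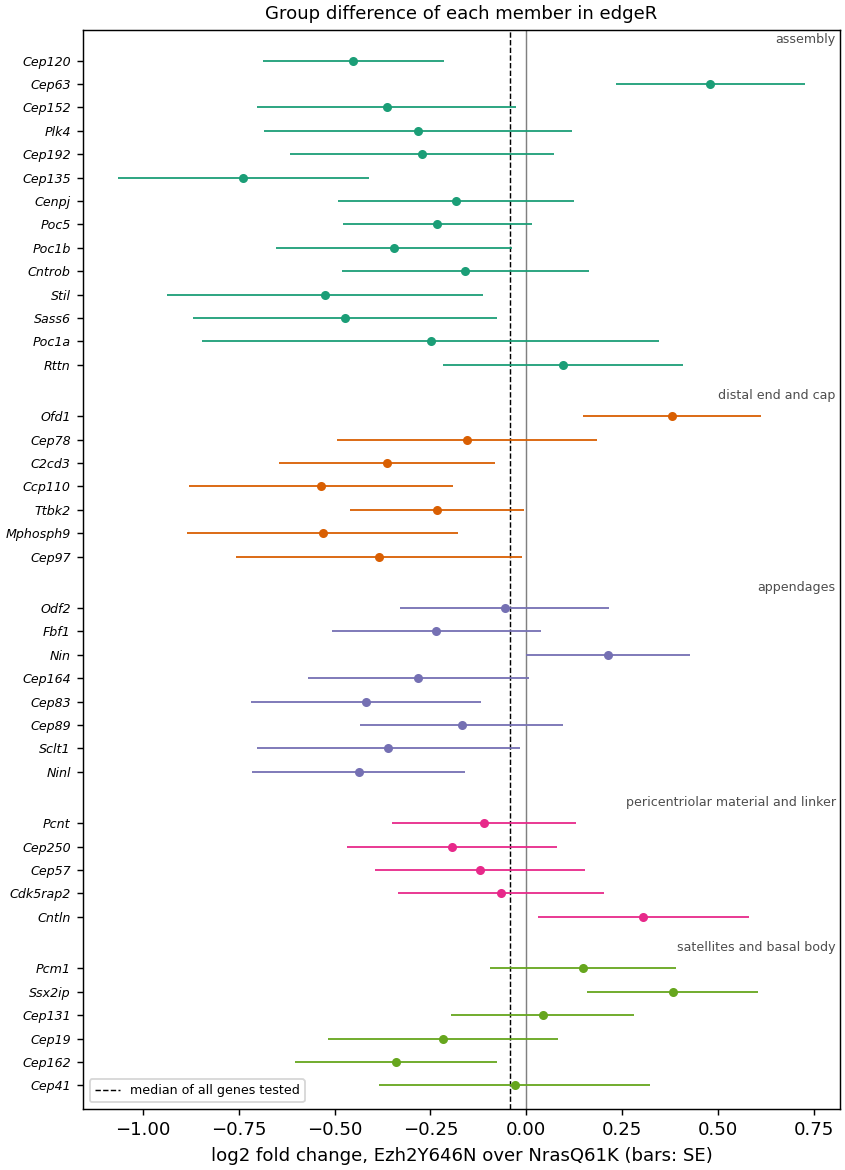
Log2 fold change of each member, Ezh2Y646N over NrasQ61K (points, bars are the SE, 2 libraries a group), by subgroup and, within it, by level per length. The dashed line is the median of all genes tested, -0.042; Cep135 at -0.74 and Cep63 at 0.48 are the ends of the range.

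Most members were higher in NrasQ61K replicate 1 than in NrasQ61K replicate 2. NrasQ61K replicate 1 was the highest of the 4 libraries in 33 of 40 members, or 82.5%, against 32.7% of all genes tested. Within the NrasQ61K group 38 of 40 members were higher in replicate 1 than in replicate 2, against 49.6% of all genes, and the exceptions were Nin and Cep41. The median ratio of replicate 1 to replicate 2 was 1.51, with a range from 0.885 (Cep41) to 2.90 (Poc1a). In 23 of 40 members replicate 1 was at least 1.5 times replicate 2, against 13.8% of all genes, and the reverse held for 0 members, against 17.8%. Summed over the 40 genes, the level was 2951 CPM in NrasQ61K replicate 1 and 2116 CPM in replicate 2, with 2333 and 2457 CPM in Ezh2Y646N. The NrasQ61K libraries were thus the ends of the range, and both Ezh2Y646N libraries lay between them. With 2 libraries a group this difference has no test.

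**Figure D2:**
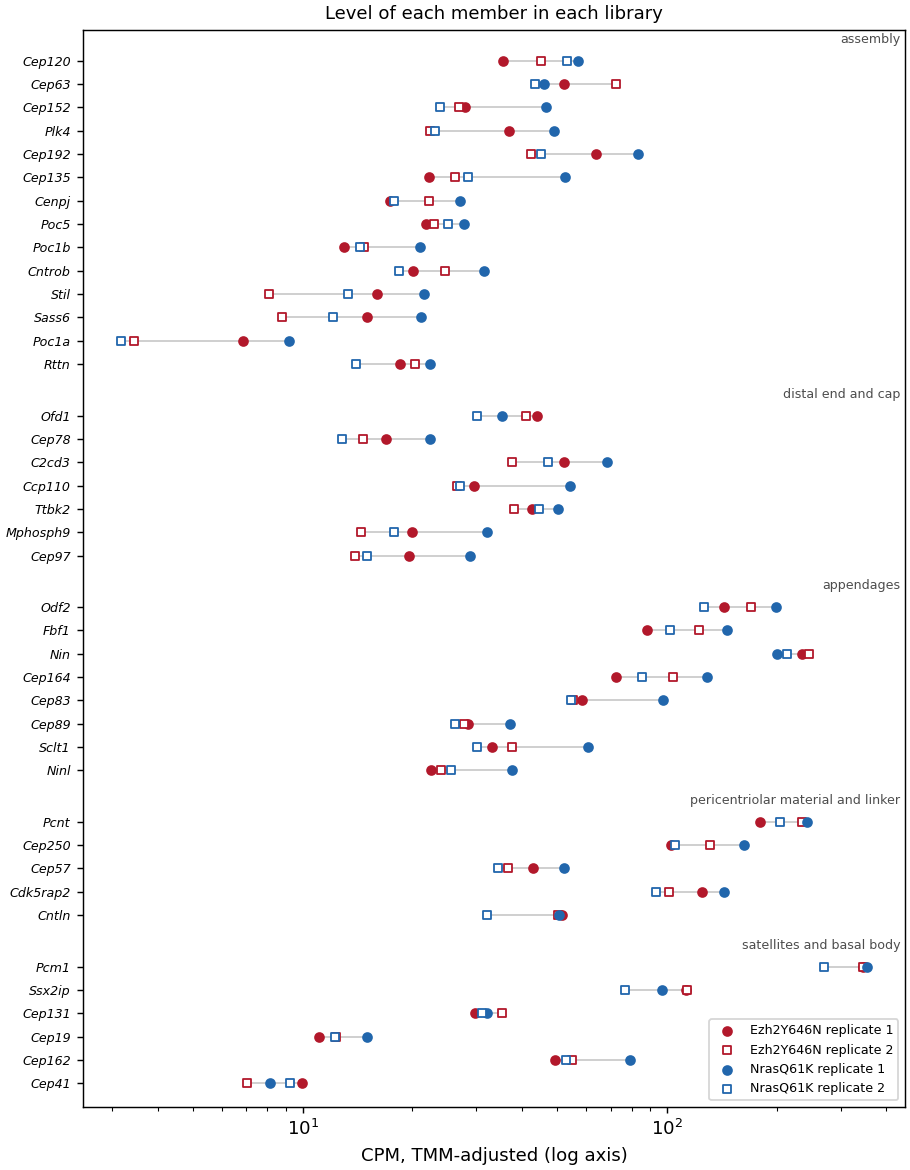
Level of each member in CPM (log axis) in the 4 libraries, grouped by role and ordered by level per length. NrasQ61K replicate 1 (filled blue circle) is the rightmost point in 33 of 40 rows, and Pcm1, at 269 to 355 CPM, has the highest level per length of the members.

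Among the 14 assembly genes, which build the new centriole, 12 had a log2 fold change below 0 and 0 passed. The median was -0.28. Cep135 (chromosome 5, 76588698 to 76646466 on GRCm38, as for all positions here), which ties the cartwheel to the microtubule wall, had the smallest p of the 40. It was at 22.2 and 26.2 CPM in Ezh2Y646N and at 52.5 and 28.5 CPM in NrasQ61K. NrasQ61K replicate 1 stood well above the rest, and replicate 2 lay just above the Ezh2Y646N range, so the groups did not overlap. The difference of -0.74 on the log2 scale (SE 0.33) had an adjusted p of 0.369 in edgeR. Without NrasQ61K replicate 2 it was -1.07 and passed (edgeR's adjusted p = 0.0340), and without NrasQ61K replicate 1 it was -0.23.

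Cep63 (chromosome 9, 102584588 to 102626534), which with Cep152 forms the ring on which Plk4 is recruited, went the other way. Its levels were 52.3 and 72.6 CPM in Ezh2Y646N against 45.9 and 43.5 CPM, and Ezh2Y646N replicate 2 was the highest of the 4. The groups did not overlap, but the log2 fold change of 0.48 (SE 0.25) did not pass, with an adjusted p of 0.459 in edgeR. Its partner Cep152 was at 27.8 and 26.8 CPM against 46.6 and 23.8 CPM, high only in NrasQ61K replicate 1. Cep120 (chromosome 18, 53681723 to 53744608), which promotes centriole lengthening, had the highest level per length of the subgroup, 6.96 CPM per kilobase of exon. It was at 35.5 and 45.2 CPM against 57.1 and 53.2 CPM, and both NrasQ61K libraries were above both others. For Cep120 the log2 fold change was -0.45 (SE 0.24, adjusted p = 0.467 in edgeR). Poc5, a centrin-binding protein of the distal centriole, was the other assembly gene with Ezh2Y646N lower and no overlap, at 21.8 and 23.00 CPM against 27.7 and 24.98 CPM. Its exons share 1604 bases, or 25.7%, with Ankdd1b on the opposite strand, so its counts are uncertain.

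Plk4 (chromosome 3, 40800019 to 40816883), the kinase that starts duplication, was at 36.8 and 22.3 CPM in Ezh2Y646N and at 49.04 and 23.1 CPM in NrasQ61K. Replicate 1 was the higher library in both groups, by 1.65 and 2.12 times, and the log2 fold change was -0.28 (SE 0.40, edgeR's adjusted p = 0.844). Poc1a (chromosome 9, 106281061 to 106350521), a WD40 protein that stabilises centrioles, showed the same order at a low level. It had 6.84 and 3.45 CPM against 9.16 and 3.17 CPM, which rest on 50 to 145 reads a library, and the log2 fold change was -0.25 (SE 0.60, edgeR's adjusted p = 0.916). Stil, which carries Sass6 to the site of assembly, was at 16.04 and 8.08 CPM against 21.6 and 13.3 CPM. Sass6, the cartwheel hub, was at 15.1 and 8.77 CPM against 21.1 and 12.1 CPM, though 6.36% of its exon bases are shared with Trmt13, a counted gene on the opposite strand. Cep192, a scaffold for both Plk4 and the pericentriolar material, was at 63.9 and 42.3 CPM against 83.2 and 45.2 CPM.

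These 5 genes, Plk4, Poc1a, Stil, Sass6 and Cep192, were the only members at least 1.5 times higher in Ezh2Y646N replicate 1 than in replicate 2. They are 12.5% of the 40, and 12.5% of all genes tested were as well. All 5 were also at least 1.5 times higher in NrasQ61K replicate 1 than in replicate 2. Of the other 9 assembly genes, 8 were higher in Ezh2Y646N replicate 2 than in replicate 1, and Cep152 was nearly level. Cenpj, a tubulin-binding protein that lengthens centrioles, was at 17.4 and 22.2 CPM against 27.1 and 17.8 CPM. Rttn (chromosome 18, 88971790 to 89131016), needed to assemble full-length centrioles, had the lowest level per length of all members, 1.56 CPM per kilobase. It was at 18.5 and 20.3 CPM against 22.4 and 14.00 CPM, or 0.10 on the log2 scale (SE 0.31, adjusted p = 0.941 in edgeR), with the NrasQ61K libraries outside the range of the others. Cntrob, the daughter centriole protein centrobin, was at 20.1 and 24.6 CPM against 31.5 and 18.4 CPM. Poc1b, the paralogue of Poc1a, was at 12.99 and 14.8 CPM against 20.98 and 14.3 CPM, and 420 of its exon bases are shared with Galnt4 on the same strand.

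In the distal end and cap subgroup 6 of 7 members had a log2 fold change below 0 and 0 passed, with a median of -0.36. Ccp110 and Cep97 form the cap that has to leave the older centriole before a cilium can grow. Ccp110 (chromosome 7, 118712552 to 118737024) was at 29.5 and 26.5 CPM in Ezh2Y646N and at 54.3 and 27.1 CPM in NrasQ61K. Of the 4 libraries 3 lay close together, and NrasQ61K replicate 1 was 2.01 times replicate 2. The log2 fold change was -0.53 (SE 0.34, edgeR's adjusted p = 0.577) and 0.051 without that library. Cep97 (chromosome 16, 55899888 to 55934855), the lowest of the subgroup per length at 2.11 CPM per kilobase, was at 19.6 and 13.95 CPM against 28.9 and 15.01 CPM. On the log2 scale the difference was -0.38 (SE 0.37, adjusted p = 0.756 in edgeR). Mphosph9 (chromosome 5, 124250959 to 124327972), which brings the pair to the centriole, was at 19.9 and 14.5 CPM against 32.1 and 17.8 CPM, or -0.53 on the log2 scale (SE 0.35, adjusted p = 0.595 in edgeR). For these 3 cap genes NrasQ61K replicate 1 was the highest library and Ezh2Y646N replicate 2 the lowest.

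Ofd1 (chromosome X, 166390033 to 166440704), a distal end and satellite protein that limits centriole length, was the one member of the subgroup above 0. It was at 43.97 and 41.02 CPM in Ezh2Y646N against 35.2 and 30.1 CPM, without overlap, and was the highest of the subgroup per length at 8.44 CPM per kilobase. The log2 fold change was 0.38 (SE 0.23, edgeR's adjusted p = 0.554), and between 0.31 and 0.50 when any 1 library was left out. Ttbk2, the kinase that triggers removal of the cap, was at 42.5 and 37.98 CPM against 50.1 and 44.6 CPM, lower in both Ezh2Y646N libraries by a small margin. Its exons share 29.9% of their bases with Cdan1 on the same strand, so its counts are uncertain. C2cd3, needed to build distal appendages, was at 52.2 and 37.6 CPM against 68.6 and 47.1 CPM. Cep78, a distal end protein, was at 16.9 and 14.6 CPM against 22.4 and 12.8 CPM. All 7 genes of the subgroup were higher in Ezh2Y646N replicate 1 than in replicate 2, by 1.07 to 1.41 times, where 50.4% of all genes tested were.

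Of the 8 appendage genes 7 had a log2 fold change below 0, with a median of -0.26, and 0 passed. Ninl (chromosome 2, 150934519 to 151039382), a ninein-like protein that anchors microtubules, had the smallest p of the subgroup and its lowest level per length, 4.59 CPM per kilobase. It was at 22.5 and 23.96 CPM in Ezh2Y646N and at 37.5 and 25.5 CPM in NrasQ61K, without overlap, and only NrasQ61K replicate 1 stood clearly apart. The log2 fold change was -0.44 (SE 0.28, edgeR's adjusted p = 0.569). Cep83 (chromosome 10, 94688654 to 94790853), the base on which distal appendages are built, was at 58.4 and 55.2 CPM against 97.3 and 54.6 CPM, with 3 libraries close together and NrasQ61K replicate 1 above them. On the log2 scale the difference was -0.42 (SE 0.30, adjusted p = 0.635 in edgeR). Sclt1 (chromosome 3, 41626720 to 41742514), a distal appendage protein that Cep83 recruits, was at 33.2 and 37.6 CPM against 60.8 and 30.2 CPM. The NrasQ61K libraries were its highest and its lowest, a ratio of 2.02, and the log2 fold change was -0.36 (SE 0.34, edgeR's adjusted p = 0.745).

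Cep164, the distal appendage protein that recruits Ttbk2, was at 72.5 and 104 CPM in Ezh2Y646N and 129 and 85.6 CPM in NrasQ61K. Fbf1, another distal appendage protein, was at 88.2 and 123 CPM against 146 and 102 CPM. For both, the highest and the lowest library were replicate 1 of the 2 groups. Cep89, also of the distal appendages, was at 28.5 and 27.8 CPM against 37.03 and 26.2 CPM. Odf2 (chromosome 2, 29889221 to 29931746), on which subdistal appendages are built, had the highest level per length, 16.1 CPM per kilobase, and was at 143 and 169.8 CPM against 199 and 127 CPM. For Odf2 the log2 fold change was -0.057 (SE 0.27, adjusted p = 0.959 in edgeR), and the NrasQ61K libraries lay on either side of the others. Nin, or ninein, which anchors microtubules at these appendages, was at 235 and 246 CPM against 201 and 214 CPM, higher in both Ezh2Y646N libraries by a small margin. It was 1 of the 2 members that were not higher in NrasQ61K replicate 1 than in replicate 2.

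The 5 genes of the pericentriolar material and linker had a median log2 fold change of -0.11, with 4 below 0, and 0 passed. In 0 of the 5 were the groups without overlap, against 44.2% of all genes tested. Pcnt (chromosome 10, 76351263 to 76442786), or pericentrin, the main scaffold of the material, had the highest level per length of the subgroup at 17.7 CPM per kilobase. It was at 180.1 and 235 CPM in Ezh2Y646N and 243 and 204 CPM in NrasQ61K, or -0.11 on the log2 scale (SE 0.24, adjusted p = 0.908 in edgeR). Cep250 (chromosome 2, 155956458 to 155998900), the anchor of the linker that holds both centrioles together, was at 103 and 131 CPM against 163 and 105 CPM, with NrasQ61K replicate 1 highest. For Cep250 the log2 fold change was -0.19 (SE 0.27, adjusted p = 0.844 in edgeR), and 11.1% of its exon bases are shared with a counted gene on the opposite strand. Cntln (chromosome 4, 84884309 to 85131921), or centlein, another linker protein, had the lowest level per length at 6.49 CPM per kilobase. It was at 51.5 and 50.4 CPM against 50.5 and 31.99 CPM, with NrasQ61K replicate 2 alone standing apart, or 0.31 on the log2 scale (SE 0.28, adjusted p = 0.723 in edgeR). Cdk5rap2, which activates microtubule nucleation, was at 125 and 101 CPM against 143 and 93.5 CPM. Cep57, which works with Cep63 and Cep152 around the centriole, was at 42.8 and 36.7 CPM against 52.01 and 34.4 CPM, and for both genes the NrasQ61K libraries were the highest and the lowest.

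Satellite and basal body genes were the subgroup with the smallest median ratio between the NrasQ61K libraries, 1.25, where the other subgroups had 1.49 to 1.75. Their median log2 fold change was 0.0062, with 3 members above 0 and 3 below, and 0 passed. Pcm1 (chromosome 8, 41239752 to 41332344), the scaffold of satellites, had the highest level per length of the 40, 44.1 CPM per kilobase, where the median member was at 5.36. It was at 346 and 346 CPM in Ezh2Y646N and 355 and 269 CPM in NrasQ61K, so 3 libraries were nearly level and NrasQ61K replicate 2 was lower. The log2 fold change was 0.15 (SE 0.24, edgeR's adjusted p = 0.866). Ssx2ip (chromosome 3, 146404642 to 146440144), a satellite protein that anchors microtubules, was at 113 and 114 CPM against 97.1 and 76.7 CPM, higher in both Ezh2Y646N libraries. On the log2 scale the difference was 0.38 (SE 0.22, adjusted p = 0.532 in edgeR). Cep131, another satellite protein, was at 29.7 and 35.4 CPM against 31.98 and 31.1 CPM.

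The others of this subgroup act at the base of the cilium. Cep162 (chromosome 9, 87189577 to 87255536), which binds axonemal microtubules there, was at 49.4 and 55.04 CPM against 79.3 and 52.9 CPM, or -0.34 on the log2 scale (SE 0.26, adjusted p = 0.667 in edgeR), and was high in NrasQ61K replicate 1 alone. Cep19 (chromosome 16, 32099800 to 32108069), which brings the GTPase Rabl2 to the basal body, was at 11.1 and 12.4 CPM against 15.04 and 12.2 CPM, or -0.22 on the log2 scale (SE 0.30, adjusted p = 0.841 in edgeR). Cep41 (chromosome 6, 30653457 to 30693749), needed for glutamylation of ciliary tubulin, had the lowest level per length of the subgroup, 1.73 CPM per kilobase. It was at 9.94 and 7.04 CPM against 8.15 and 9.21 CPM, or -0.030 on the log2 scale (SE 0.35, adjusted p = 0.981 in edgeR). Of the subgroup, only Cep162 was at least 1.5 times higher in NrasQ61K replicate 1 than in replicate 2, while 10 of 14 assembly genes, 4 of 7 distal end genes, 4 of 8 appendage genes and 4 of 5 genes of the pericentriolar material and linker were. The difference between subgroups was not tested.

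Genes of proliferation, a list of 35 that holds no member, had their highest summed level in NrasQ61K replicate 1 and their lowest in replicate 2. It was 5010 CPM in NrasQ61K replicate 1 and 2243 CPM in replicate 2, with 3667 and 2488 CPM in Ezh2Y646N replicates 1 and 2. Singly, 27 of 35 were highest in NrasQ61K replicate 1 and 8 in Ezh2Y646N replicate 1, while 23 were lowest in NrasQ61K replicate 2 and 11 in Ezh2Y646N replicate 2. All 35 were higher in NrasQ61K replicate 1 than in replicate 2, and 34 of 35 were higher in Ezh2Y646N replicate 1 than in replicate 2. Mki67, the marker of cycling cells, was at 934 and 670 CPM in Ezh2Y646N and at 1466 and 593 CPM in NrasQ61K. Between groups 0 of the 35 passed in edgeR, against 1.77% of all genes tested, and 1 had an unadjusted p under 0.05, against 14.3%. The median log2 fold change of the 35 was -0.26. Among the members the order inside the Ezh2Y646N group was mixed, with 19 of 40 higher in replicate 1. Replicate 1 was the higher library in 6 of 14 assembly genes, 7 of 7 distal end genes, 2 of 8 appendage genes, 3 of 5 genes of the pericentriolar material and linker, and 1 of 6 satellite and basal body genes. The part of proliferation in the members' levels was not tested.

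**Figure D3:**
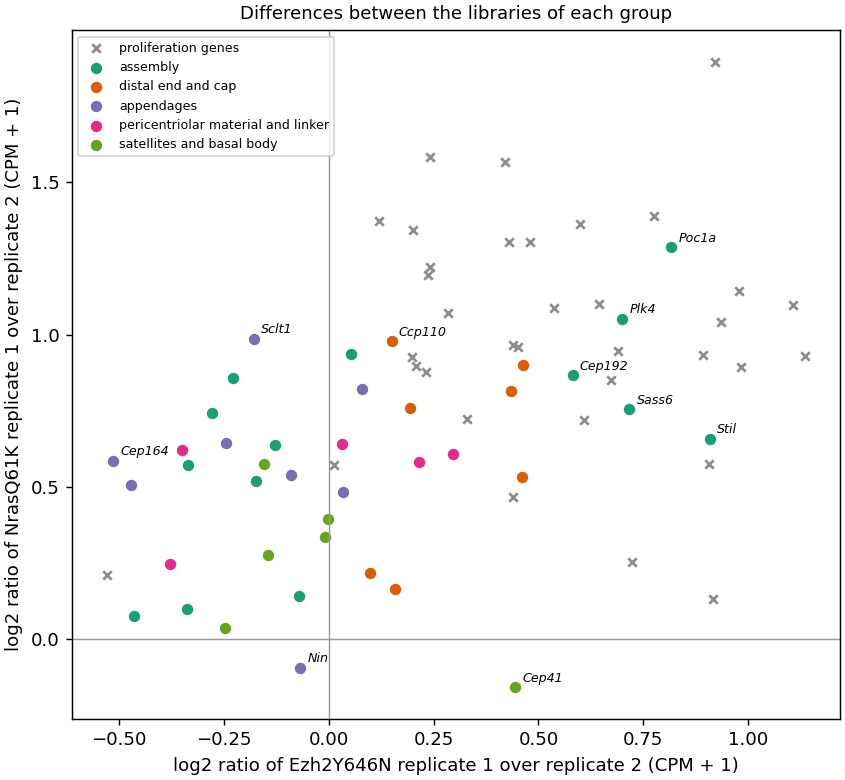
Log2 ratio of replicate 1 over replicate 2 in the NrasQ61K group (vertical) and in the Ezh2Y646N group (horizontal), from CPM with 1 added, for each member (coloured by subgroup) and each of 35 proliferation genes (grey crosses). All but Nin and Cep41 of the members lie above 0 on the vertical axis, while on the horizontal axis 19 of 40 lie to the right of 0.

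Other measures also differed between the NrasQ61K libraries. In replicate 1 and replicate 2 the 10 fibroblast markers summed to 4155 and 2469 CPM, against 932 and 2147 CPM in Ezh2Y646N, and 3 of them were lower in Ezh2Y646N by edgeR. The 9 hair follicle markers summed to 2932 and 1594 CPM, against 511 and 226 CPM, and 5 of them were lower in Ezh2Y646N by edgeR. The keratinocyte markers, at 18120 CPM in replicate 1, were lowest there in 10 of 11 genes. By edgeR 3 of the 11 were higher in Ezh2Y646N. Over all genes tested, edgeR called 0.673% lower and 1.1% higher in Ezh2Y646N. The 8 macrophage and dendritic cell markers summed to 143 and 372 CPM, against 62.7 and 134 CPM. The 8 endothelial markers summed to 218 and 188 CPM against 136 and 79.4 CPM, and the 8 markers of Schwann cells and glia to 258 and 428 CPM against 892 and 415 CPM, where 1 of the 8 was higher in Ezh2Y646N by edgeR. The 8 lymphocyte and mast cell markers, of which 4 passed the filter on low counts, summed to 9.35 and 41.3 CPM against 6.90 and 14.3 CPM, with 1 of them at 0 reads in each Ezh2Y646N library. No other marker was at 0. Mitochondrially encoded genes took 1.195% to 1.64% of counts and ribosomal protein genes 3.61% to 3.98%. Their part in the members' levels was not tested.

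Longer genes were more often highest in NrasQ61K replicate 1. The members are long, with a median merged exon length of 7145 bases against 4442 over all genes tested, from 1751 (Cep19) to 17005 (Nin). Over all genes of more than 4000 and up to 8000 bases, 35.9% were highest in NrasQ61K replicate 1, and 17 of 21 members of that length were. Over all genes of more than 8000 bases, 43.2% were highest there, as were 13 of 15 members. The median log2 ratio of NrasQ61K replicate 1 to replicate 2 was 0.036 and 0.12 in these classes over all genes and 0.57 and 0.61 for the members, with 1 added to CPM. These classes hold most of the members, and the part of length in the members' ratio was not tested.

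**Figure D4:**
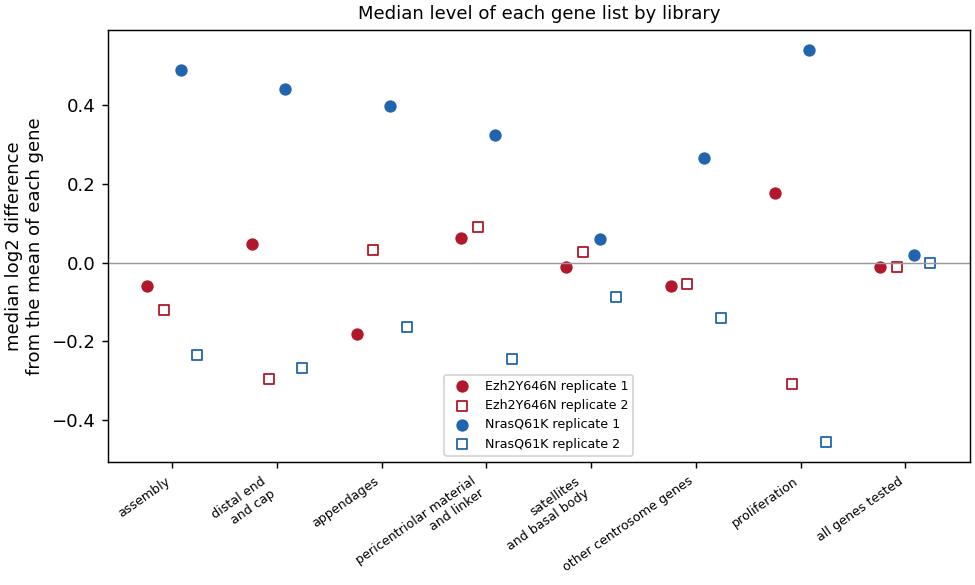
Median over each gene list of the log2 level (CPM with 1 added) relative to the mean of each gene over the 4 libraries, one point per library. NrasQ61K replicate 1 is highest for each list, from 0.059 for satellites and basal body to 0.54 for proliferation, and 0.019 over all genes tested.

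A further 87 genes of the centrosome that are no members (other Cep genes, the gamma-tubulin ring and augmin complexes, centrins, cell cycle kinases and ubiquitin ligases among them) were tested alongside. In edgeR 0 of 87 passed, against 1.77% of all genes tested, and 3 had an unadjusted p under 0.05, against 14.3%. Their median log2 fold change was -0.15, with 55 below 0. In 74 of 87 NrasQ61K replicate 1 was above replicate 2, against 49.6% of all genes, and in 30 of 87 by at least 1.5 times, against 13.8%. The smallest p among those below 0 belonged to Ccdc68, a subdistal appendage gene, at 3.39 and 1.52 CPM against 23.9 and 7.001 CPM (log2 fold change -2.64, SE 0.66, edgeR's adjusted p = 0.104). Cep170, which binds subdistal appendages, followed at 41.7 and 37.0 CPM against 64.3 and 65.7 CPM (-0.72, SE 0.22, edgeR's adjusted p = 0.169), and then Dzip1l, a basal body gene, at -0.66 (edgeR's adjusted p = 0.297). Cep170 was level between the NrasQ61K libraries and did not overlap between groups. Above 0 the smallest p-values were those of Cep170b (0.53), Dzip1 (0.40) and Ccdc120 (0.48), with adjusted p of 0.385, 0.543 and 0.585 in edgeR. DESeq2 called 1 of the 87, Ccdc68, lower, where it called 6.5% of all genes in either direction. With no filter on low counts edgeR also called Ccdc68 lower, where it called 6.95% of all genes.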

How the data were processed

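For each of the 4 libraries the authors deposited raw counts of reads for each Ensembl identifier, which are not normalized. STAR 2.5.4b, featureCounts, Trimmomatic, bcl2fastq 2.19, edgeR and GRCm38 are listed in the submitters' processing notes. Libraries came from a stranded, ribosomal RNA-depleted total RNA kit for very small inputs, per the labels' protocols. Which annotation and strand setting the counting used is not given in the sources used here. Symbols, positions and merged exon lengths are from GENCODE M21 (GRCm38), where 22214 of 22524 identifiers were found. Counts were tested with edgeR 4.0.16 (filterByExpr with a minimum of 10 counts and a total of 15, TMM, robust quasi-likelihood fit on group, 2 residual degrees of freedom, 2-sided) and adjusted by Benjamini-Hochberg over all 14265 genes tested. The test was checked on simulated data, where it missed most of the genes changed 2-fold and found most of those changed 4-fold. Alternatives were RLE scaling, no filter, DESeq2 1.42.0, limma 3.58.1 voom, a replicate block and leaving out each library. Depth was 14808801 to 20600297 counts, and the biological coefficient of variation was 27.9%. The members and lists were chosen with earlier results of these data known. Values in every library are given for the 3 members of smallest p and those of highest and lowest level per length in each subgroup and the 3 with the largest ratio between libraries of a group; other members' values were added after they were seen. The length classes were also added then. Promoters are from RefSeq on GRCm38.p6, where 35 of 40 members had an entry.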

Additional observations from a re-analysis of the deposited data

How the results depend on the processing

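With RLE scaling, no filter on low counts, DESeq2, limma voom and the replicate block, all 40 members kept the direction of their log2 fold change and 0 passed. Leaving out NrasQ61K replicate 1 turned the direction of 19 members, Ezh2Y646N replicate 2 of 5, and each of the other libraries of 2; the lone library left in a group is then assumed to vary like the other group's. Over the 4 fits without 1 library, 0 to 1 members and 0 to 3 other centrosome genes were called lower. The median log2 fold change ranged from -0.44 to 0.12 over all members, -0.58 to 0.17 for assembly, -0.62 to 0.051 for distal end and cap, -0.47 to 0.079 for appendages, and -0.30 to 0.21 for pericentriolar material and linker, each highest without NrasQ61K replicate 1. Among single genes the ranges that crossed 0 were -0.69 to 0.36 for Plk4, -0.41 to 0.15 for Cenpj, -0.73 to 0.20 for Cep152, -0.61 to 0.23 for Cep192, -0.16 to 0.47 for Rttn, -0.83 to 0.70 for Poc1a, -0.46 to 0.28 for Cntrob, -0.91 to 0.051 for Ccp110, -0.74 to 0.16 for Cep97, -0.46 to 0.30 for Cep78, -0.73 to 0.056 for Cep83, -0.36 to 0.10 for Cep89, -0.74 to 0.23 for Sclt1, -0.50 to 0.042 for Fbf1, -0.57 to 0.043 for Cep164, -0.30 to 0.30 for Odf2, -0.32 to 0.068 for Pcnt, -0.30 to 0.27 for Cdk5rap2, -0.35 to 0.21 for Cep57, -0.43 to 0.15 for Cep250, -0.095 to 0.16 for Cep131 and -0.30 to 0.19 for Cep41. One other centrosome gene, Ccdc68, was called lower with no filter (1), in DESeq2 (1) and with the replicate block (1). Over all genes these settings called 6.95%, 6.5% and 9.37%, in that order. Among the fits without 1 library, the upper ends of both ranges of calls came without NrasQ61K replicate 2. That fit called 7.66% of all genes in either direction, where the other fits without 1 library called 0.63% to 2.95%.

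The labels share replicate numbers but do not pair them. With the replicate block 0 members passed, while calls over all genes went from 253 to 1337; the deviations of the libraries numbered 1 from their group means had a correlation of 0.14 across genes. Counts over all genes were 253 in edgeR with all libraries, 927 in DESeq2, 1302 with no filter, 92 without Ezh2Y646N replicate 1, 440 without NrasQ61K replicate 1 and 1123 without NrasQ61K replicate 2. The members' log2 fold changes had a median SE of 0.29, and a p that misses the threshold does not show that the groups were alike.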
